A study of Homo sapiens with 25 samples.

Results

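Primed enhancers are stretches of chromatin that carry monomethylated lysine 4 of histone H3 (H3K4me1) but lack acetylated lysine 27 (H3K27ac), the mark of enhancers in use. The constant primed regions of HCT116, an established human colorectal carcinoma line, are the subject here. Overlapping peaks of the 4 H3K4me1 lists were merged, and a region was kept if all 4 lists had a peak in it and no H3K27ac peak of 4 lists and no H3K4me3 peak of 2 lists touched it. The rule gave 11184 regions out of 150847 H3K4me1 regions, which was 7.41% of all and 18.0% of the 61998 regions held by all 4 lists. The members were chosen by the presence of H3K4me1 peaks and the absence of H3K27ac and H3K4me3 peaks, so these marks are described below without a test. Lack of a called peak is not lack of the mark, and enhancer activity was not measured.

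The FOXD2 cells are HCT116 transduced with a lentiviral pSin vector that carries the full coding sequence of FOXD2, a forkhead transcription factor, and the control cells carry the empty vector. Both were kept under puromycin, and both are stable lines whose clonal make-up the labels do not state. H3K4me1, H3K27ac and MLL4 were mapped in 2 libraries each of FOXD2 and control cells, and H3K4me3 in 1 library each. FOXD2 itself was mapped in HCT116 given a pcDNA3.1 plasmid for FOXD2 with FLAG and 6xHis tags, in 2 libraries per tag, with no library of cells without the tags. Binding and a background shared by the tag libraries therefore cannot be told apart. The labels do not say whether replicates came from separate cultures, so p-values measure the spread between libraries, which may be technical.

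H3K4me1 is placed at enhancers largely by the related methyltransferases MLL3 and MLL4, encoded by KMT2C and KMT2D. MLL4 is also known to help recruit the acetyltransferase p300, which writes H3K27ac. Enhancers with H3K4me1 alone are regarded as marked in advance, since they can gain acetylation when a cell differentiates or receives a signal. H3K4me3 marks active promoters, most of which lie in CpG islands, and some forkhead factors are known for binding enhancers in closed chromatin.

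The few promoters that lay inside primed regions are the only stretches of these regions whose sequence is used here, and they do not stand for the primed regions that lie away from promoters. Of 34961 RefSeq promoter windows on chromosomes 1 to 22 and X (GRCh38.p14, 250 bases before to 50 bases after a start, several starts per gene), 189 lay wholly inside a primed region. Of the protein-coding ones, 4 that many lists of MLL4 or of the tags held are printed 5′ to 3′ with every CpG in capitals. They are ARHGAP32, a GTPase-activating protein (chr11:129024139-129024438, minus strand), and NRG4, a ligand of the receptor ERBB4 (chr15:76012375-76012674, minus strand). The others are SCEL, a protein of the cornified envelope (chr13:77535456-77535755, plus strand), and BDH2, a dehydrogenase (chr4:103099785-103100084, minus strand). DDB2, a DNA repair gene (chr11:47214724-47215023, plus strand), is set below them as a promoter from regions with H3K4me3. It is the first by name of 5 coding promoters with the median CpG count of that class, MLL4 and H3K27ac in all 4 lists and H3K4me3 in both.
ARHGAP32: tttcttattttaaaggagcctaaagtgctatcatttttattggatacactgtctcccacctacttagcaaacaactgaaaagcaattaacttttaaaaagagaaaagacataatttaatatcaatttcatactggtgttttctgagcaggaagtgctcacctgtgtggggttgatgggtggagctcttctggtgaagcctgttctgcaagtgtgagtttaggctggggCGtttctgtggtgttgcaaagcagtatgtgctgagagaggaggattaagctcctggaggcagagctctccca
NRG4: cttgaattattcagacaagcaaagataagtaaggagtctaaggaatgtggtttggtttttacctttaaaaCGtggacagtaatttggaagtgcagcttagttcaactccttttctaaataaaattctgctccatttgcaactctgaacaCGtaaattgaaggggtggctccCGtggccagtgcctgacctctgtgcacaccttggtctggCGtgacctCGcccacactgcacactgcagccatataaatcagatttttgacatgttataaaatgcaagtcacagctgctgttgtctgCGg
SCEL: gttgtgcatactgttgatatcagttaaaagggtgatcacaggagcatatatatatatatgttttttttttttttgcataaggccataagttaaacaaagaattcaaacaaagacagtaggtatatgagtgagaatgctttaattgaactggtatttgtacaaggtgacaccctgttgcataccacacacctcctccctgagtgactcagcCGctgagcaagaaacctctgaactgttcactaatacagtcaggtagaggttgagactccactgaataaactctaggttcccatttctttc
BDH2: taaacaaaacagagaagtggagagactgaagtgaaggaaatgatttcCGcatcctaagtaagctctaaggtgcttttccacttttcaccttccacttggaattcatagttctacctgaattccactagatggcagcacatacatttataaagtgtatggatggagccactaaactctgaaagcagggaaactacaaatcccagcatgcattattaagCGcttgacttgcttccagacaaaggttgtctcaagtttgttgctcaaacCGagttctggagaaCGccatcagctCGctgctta
DDB2: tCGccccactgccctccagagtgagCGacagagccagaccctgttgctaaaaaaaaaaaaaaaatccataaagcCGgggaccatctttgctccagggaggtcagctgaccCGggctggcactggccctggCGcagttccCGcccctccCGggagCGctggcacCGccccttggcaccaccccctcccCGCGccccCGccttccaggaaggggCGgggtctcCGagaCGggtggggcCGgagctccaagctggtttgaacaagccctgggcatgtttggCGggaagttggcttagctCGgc

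The printed primed promoters held 1 CpG in ARHGAP32, 6 in NRG4, 1 in SCEL and 5 in BDH2, against 18 in DDB2. Over all 189 windows the median was 3 CpG (quartiles 1 and 5), against 3 in the 361 windows inside partly acetylated regions, 2 in the 257 windows inside regions with H3K4me1 alone in fewer than 4 lists, 5 in the 306 windows inside constant active regions, 18 in the 5492 windows inside regions with H3K4me3 and 14 over all windows. Constant active regions are those held by all 4 H3K4me1 and all 4 H3K27ac lists without H3K4me3, and partly acetylated ones have H3K27ac in 1 to 3 lists instead. A CpG count below that of all windows was therefore shared by every class without H3K4me3, with constant active windows the highest of these. At least 10 CpG were present in 7 primed windows (3.70%), 21.6% of constant active windows, 69.9% of windows with H3K4me3 and 56.5% of all windows. The median GC content was 44.3% in primed windows, the same value in windows with H3K4me1 alone in fewer than 4 lists, and 58.7% over all windows. In the primed set, 90 windows belonged to protein-coding genes and 99 to long noncoding RNAs. RefSeq lists alternative starts, and a window inside a primed region need not be the start that the cell uses.

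**Figure D1:**
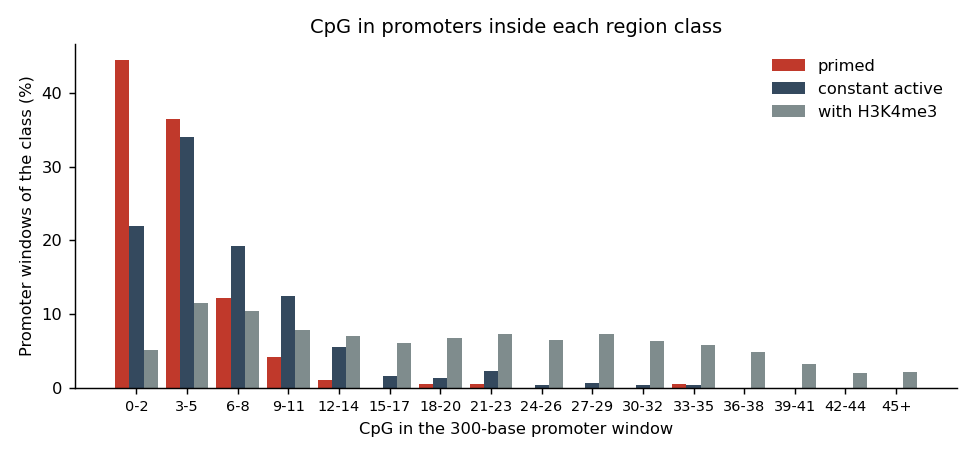
CpG count of 300-base promoter windows (x axis) against the percent of windows of each class (y axis), for windows inside primed regions (n = 189), constant active regions (n = 306) and regions with H3K4me3 (n = 5492). Primed windows crowd at the low end, with a median of 3, while windows with H3K4me3 spread to high counts around a median of 18.

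The windows were also searched on both strands for 3 motifs. The forkhead motif TGTTTAC was present in 15 of 189 primed windows (7.94%, 95% Wilson interval 4.87 to 12.7), against 3.42% of all windows. The AP-1 motif TGANTCA, read by FOS and JUN dimers, was present in 40 (21.2%, interval 15.9 to 27.5), against 7.68% of all. The CDX motif TTTATNG, read by the intestinal factors CDX1 and CDX2, was present in 39 (20.6%, interval 15.5 to 27), against 9.73% of all. Windows inside constant active regions held the same motifs, in that order, at 3.59%, 22.9% and 10.1%. Windows inside partly acetylated regions held them at 6.93%, 24.9% and 18.6%, and windows with H3K4me1 alone in fewer than 4 lists at 7.00%, 26.8% and 15.2%. All of these lie inside the interval of the primed share except the forkhead and CDX shares of constant active windows and the CDX share of the last class. Base composition differs between the classes and its part in these shares was not tested. A match is a run of letters and not a shown binding site.

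A forkhead motif and a tag peak fell on the same window at 4 starts. Of these, 2 belong to overlapping windows of TSPAN8, a tetraspanin of the cell surface, that share the motif. Among the 189 primed windows 15 had the motif and 41 a tag peak. Whether the features met more often than these counts alone would give was not tested. The 3 stretches around the motif are shown on the strand of their start, with the motif in capitals, because they are the primed promoters where both features meet. They are chr7:116810925-116810971 (plus strand), chr6:155880950-155880996 (plus strand) and chr12:71158026-71158072 (minus strand).
LOC124901731: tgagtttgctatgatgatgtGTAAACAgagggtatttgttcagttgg
LOC105378072: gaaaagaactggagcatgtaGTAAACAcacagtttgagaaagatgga
TSPAN8: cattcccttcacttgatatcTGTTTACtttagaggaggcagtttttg

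The first of these regions was held by 2 tag lists, that at LOC105378072 by 2 and that at TSPAN8 by 1, and none was held by an MLL4 list. A tag peak lay on 41 of the 189 windows and an MLL4 peak on 10, and the shares over all promoter windows are not given here. H3K4me1 of all 4 lists covered 144 of them at least in part.

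The primed regions were of middle width, and most lay away from gene ends, as did regions of the other classes without H3K4me3. Their median width was 1265 bp (5th to 95th percentile 613 to 2998), against 2426 bp for the 6563 constant active regions and 525 bp for the 60636 regions that had H3K4me1 alone in fewer than 4 lists. Of the primed regions, 9414 (84.2%, 95% Wilson interval 83.5 to 84.8) were distal, meaning over 2 kb from every end of an annotated gene, against 71.9% (70.8 to 73.0) of constant active, 80.4% (79.8 to 81.0) of partly acetylated and 87.1% (86.9 to 87.4) of regions with H3K4me1 alone in fewer than 4 lists. A protein-coding gene was touched by 54.0% (53.1 to 55.0) of primed and 56.9% (55.7 to 58.1) of constant active regions. These intervals cover the counting of regions only, and width, position and gene content are read once per region with no replicate.

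The distance to acetylation ran from under 500 bp to over 50 kb. The nearest H3K27ac peak of any list lay at a median of 4566 bp (quartiles 1404 and 15298), and 934 regions (8.35%) had none within 50 kb. The regions with H3K4me1 alone in fewer than 4 lists had a like median, 4256 bp. At the edge of the rule, 1194 primed regions had an H3K27ac peak within 500 bp, and 5546 regions just outside it had H3K27ac in exactly 1 list. Of those 5546, 2078 had it only in FOXD2 replicate 1 and 1885 only in FOXD2 replicate 2. For control replicates 1 and 2 the counts were 782 and 801. The H3K27ac lists had 85122 and 141008 peaks (111 and 171 Mb) in FOXD2 cells and 129995 and 85832 (132 and 89.3 Mb) in control cells. The part of list size was not tested, and the matching shares over all H3K4me1 regions are not given here. H3K27ac was used by the rule, so these counts are description only. Another 6988 regions outside the rule had H3K4me1 in exactly 3 lists and neither other mark, and 1719 held by all 4 had H3K4me3 but no H3K27ac.

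**Figure D2:**
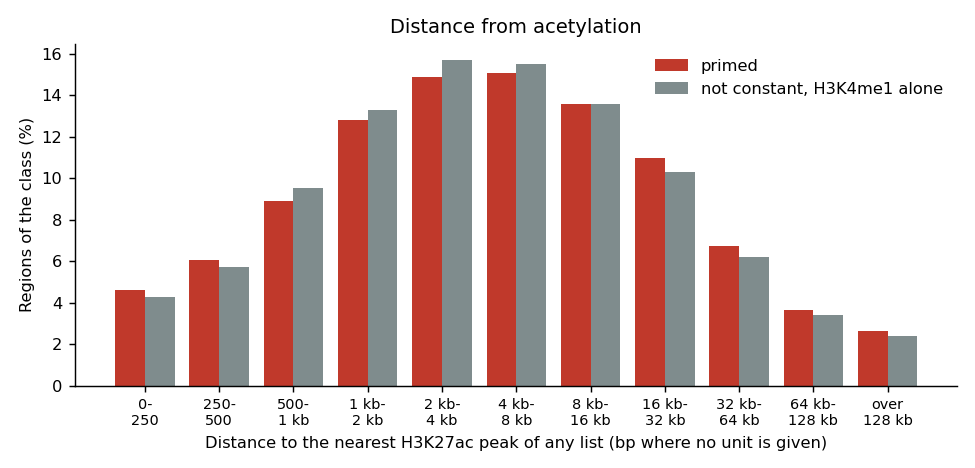
Distance from each region to the nearest H3K27ac peak of any of the 4 lists (x axis, bins that widen with distance) against the percent of regions (y axis), for 11184 primed regions and 60636 regions with H3K4me1 alone in fewer than 4 lists. Both classes spread over the same range, with medians of 4566 and 4256 bp.

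Most primed regions had no other one close by. The nearest other primed region lay at a median of 43202 bp, and 2265 (20.3%) had another within 10 kb. With gaps of up to 20 kb allowed, the longest run held 8 primed regions across 55.2 kb of MED13L (chr12:116164009-116219225). Runs of 6 lay at SOCS5 (chr2:46716499-46772325), an inhibitor of cytokine signalling, and at PPP3CA (chr4:101210987-101241372), the catalytic subunit of calcineurin.

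The share of primed regions also differed among chromosomes. Of the constant H3K4me1 regions without H3K4me3, 34.0% were primed in all. On chromosome X the share was 55.1% (95% Wilson interval 51.4 to 58.7) and on chromosome 4 it was 45.4% (43.1 to 47.8). It was 14.1% (12.0 to 16.5) on chromosome 19 and 16.8% (14.2 to 19.9) on chromosome 22.

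MLL4 peaks were rare at primed regions. Each MLL4 list held few of them, at 1.08% and 0.867% in FOXD2 cells and 1.28% and 2.61% in control cells. Both FOXD2 values lay below both control values. The means were 0.975% ± 0.15 in FOXD2 cells and 1.94% ± 0.94 in control cells (SD, n = 2 each), a difference of -0.970 points. The exact two-sided permutation test over libraries gave p = 0.333 (0.333 after Benjamini-Hochberg adjustment over the 7 tests made here), the smallest that 2 against 2 can give. The 2 control libraries differed more from each other than the group means did. The MLL4 lists had 22493 and 4676 peaks in FOXD2 cells and 16046 and 13571 in control cells, and when every list was reduced to the length of the shortest list of its mark, which left 10152 primed regions, the difference turned to 0.291 points (exact p = 0.667). With the MLL4 lists alone reduced to their 4676 strongest peaks it was 0.165 points (0.541% in FOXD2 and 0.376% in control cells, exact p = 0.667), and with every other list reduced but MLL4 left whole it was -1.03. These last 2 settings were chosen after seeing the data. Without control replicate 2 it was -0.304 points and without control replicate 1 it was -1.64.

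At least 1 MLL4 list held 516 primed regions (4.61%), against 13.8% of all H3K4me1 regions, and all 4 held 5 (0.0447%), against 1.46% of all. Both FOXD2 lists and no control list held 9 (0.0805%), against 0.237% of all H3K4me1 regions. Both control lists and no FOXD2 list held 38 (0.340%), against 1.38% of all. All 4 of these shares were below the share over all H3K4me1 regions.

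Within each library, MLL4 was less frequent at primed than at constant active regions. The share at constant active regions was 17.1% and 7.48% in FOXD2 lists and 16.0% and 18.2% in control lists. The mean over the 4 lists was 1.46% at primed and 14.7% at constant active regions, and the mean of the within-library differences was -13.2 ± 4.4 points (SD, n = 4 lists), lower in 4 of 4 lists. The exact sign-flip permutation test gave two-sided p = 0.13 (adjusted 0.146), the smallest that 4 lists can give. Against the regions with H3K4me1 alone in fewer than 4 lists, which MLL4 held at a mean of 0.112%, primed regions were higher in 4 of 4 lists, by 1.35 ± 0.81 points (exact p = 0.13, adjusted 0.146). Partly acetylated regions fell between the primed and the constant active ones at a mean of 5.16%.

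**Figure D3:**
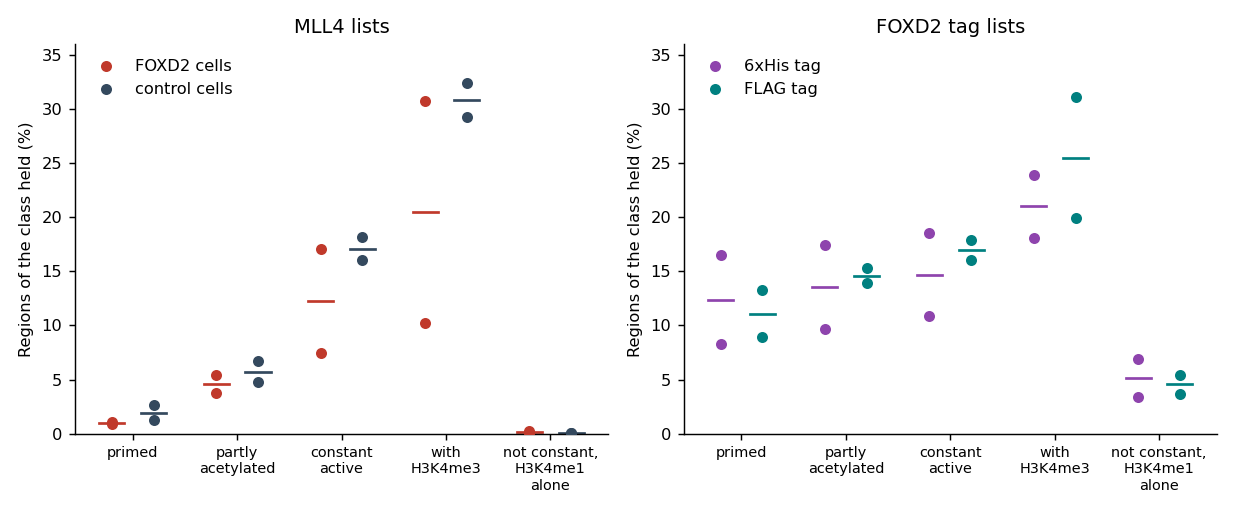
Percent of regions of each class held by each list (y axis), with 1 point per library and a bar at the mean of 2 libraries, for MLL4 in FOXD2 and control cells and for the 6xHis and FLAG tags of FOXD2. Primed regions have MLL4 shares of 0.867% to 2.61% and tag shares of 8.28% to 16.5%.

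Tagged FOXD2 was found at primed regions more often than MLL4. The 6xHis lists held 16.5% and 8.28% of them and the FLAG lists 13.3% and 8.89%. At constant active regions the 6xHis lists held 18.5% and 10.9% and the FLAG lists 16.0% and 17.9%. The mean was 11.7% at primed and 15.8% at constant active regions, and the within-library differences averaged -4.07 ± 3.3 points (SD, n = 4 lists), lower in 4 of 4 lists, with exact p = 0.13 (adjusted 0.146). The difference was -1.78 points without H3K27ac replicate 1 of FOXD2 cells (exact p = 0.500), -2.43 without FLAG replicate 2 and -2.31 in the 6xHis lists alone. As a percent of base pairs covered, a measure chosen after seeing the data, it was 0.493 points, with primed regions higher in 3 of 4 lists and lower in FLAG replicate 2. Against regions with H3K4me1 alone in fewer than 4 lists, which were held at a mean of 4.84%, primed regions were higher in 4 of 4 lists, by 6.89 ± 2.2 points (exact p = 0.13, adjusted 0.146). At least 1 tag list held 3003 primed regions (26.9%), against 20.8% of all H3K4me1 regions, and all 4 held 216 (1.93%), against 2.75% of all.

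The order of primed and constant active regions in the tag lists turned round in regions of like width up to 3000 bp. Active regions were the wider ones, as their medians show. From the narrowest bin below to the widest, there were 3188, 3694, 2021 and 1516 primed regions. The constant active ones numbered 331, 1121, 1068 and 1582 of 6563. Their upper quartile of width was 3814 bp, and regions of 3000 bp or more were not compared by width. At 500 to 1000 bp the mean tag share was 7.80% at primed and 3.32% at constant active regions. At 1000 to 1500 bp it was 9.74% and 3.97%, at 1500 to 2000 bp it was 12.2% and 6.20%, and at 2000 to 3000 bp it was 18.5% and 12.8%, primed first. Primed regions were the higher ones in every tag list of every bin except FLAG replicate 2 at 2000 to 3000 bp. Over 300 to 2000 bp the difference was 4.72 points (exact p = 0.13). Against regions with H3K4me1 alone in fewer than 4 lists, the primed regions kept the higher tag share in 4 of 4 lists of each bin, by 2.89, 3.09, 3.31 and 5.64 points from the narrowest bin to the widest, less than the 6.89 points over all widths. The mean MLL4 share kept its order against constant active regions in these bins, at 0.533% of primed and 4.68% of constant active regions of 500 to 1000 bp and at 2.97% and 13.3% at 2000 to 3000 bp. At 1000 to 1500 bp, with means of 1.04% and 6.04%, 3 of 4 lists kept it and FOXD2 replicate 2 did not (exact p = 0.250). The narrow bins were chosen after the data had been seen.

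**Figure D4:**
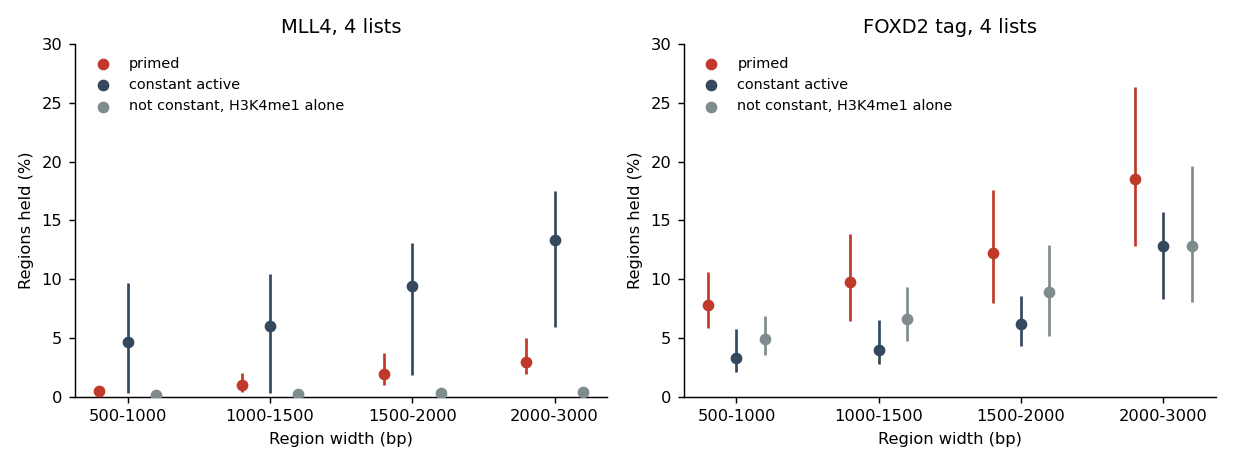
Region width in bp (x axis) against the percent of regions held by MLL4 lists (left) and FOXD2 tag lists (right), as the mean of 4 lists with a line from the lowest to the highest list. At each width shown, primed regions have a lower mean MLL4 share and a higher mean tag share than constant active regions.

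The tag lists held a larger share of the primed regions with MLL4 than of those without. Tag lists held a mean of 20.2% (14.5% to 25.8%) of the 516 primed regions with MLL4 and 11.3% (7.90% to 16.0%) of the 10668 without. The difference was 8.83 points (exact sign-flip permutation p = 0.13 over 4 tag lists, adjusted 0.146). The regions with MLL4 were wider, at a median of 1723 bp against 1244 bp. Among regions of 300 to 2000 bp the means were 14.8% with MLL4 and 9.36% without, a difference of 5.44 points (exact p = 0.13, adjusted 0.146). Those with MLL4 were still wider within that range, at a median of 1358 bp against 1128 bp, and the part of width was not tested.

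H3K4me1 itself varied in extent among members that the rule calls constant. Its peaks covered 11.6 and 12.8 Mb of the primed regions in FOXD2 cells and 10.8 and 10.1 Mb in control cells. Both FOXD2 lists covered more bases than either control list in 4142 members (37.0%), against 33.5% of all constant H3K4me1 regions. Both covered fewer in 2402 members (21.5%), against 19.4% of all constant regions. The mean cover in FOXD2 cells was at least 2 times that in control cells in 1675 members (15.0%), against 9.82% of all constant regions, and at most 0.5 times in 627 (5.61%), against 3.23% of all. The FOXD2 lists held more H3K4me1 peaks in all, 114893 and 129887 against 101204 and 95756 in the control lists, so list length moves with this count and its part was not tested. All 4 lists shared at least 1 bp in 10929 members (97.7%).

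In strength, primed regions lay near the middle of each H3K4me1 list. The median percentile of −log10 q within a list was 47.6 and 52.7 in FOXD2 cells and 44.8 and 44.7 in control cells. For constant active regions it was 76.6 and 78.2 in FOXD2 cells and 72.4 and 75.5 in control cells. The median fold enrichment deposited by the authors was 6.32 and 6.22 at primed regions in FOXD2 cells and 6.09 and 7.13 in control cells.

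Some primed regions nonetheless stood among the strongest H3K4me1 peaks. The region with the lowest rank sum lay 2.64 kb from INA, a neuronal intermediate filament (chr10:103271563-103274497). Its H3K4me1 fold was 18.5 and 12.9 in FOXD2 cells and 14.6 and 19.3 in control cells, with the groups overlapping. MLL4 was present there in 3 lists, at fold 6.12 in FOXD2 replicate 1 and 6.39 and 10.5 in the control lists. The next ones lay inside RIN2, a Rab5 regulator (chr20:19983946-19987127), and TANC2, a scaffold protein (chr17:63038882-63041982). RIN2 had H3K4me1 folds of 18.0 and 18.4 in FOXD2 cells and 17.0 and 24.2 in control cells, and an H3K27ac peak lay 1040 bp away. The remaining strong regions were at STK3, a Hippo kinase, ENTPD7, BICDL1, GTF2F2, a subunit of the general factor TFIIF, C1GALT1, which builds O-glycans, and CKAP2L, a spindle protein, and 1 on chromosome 3 had no coding gene within 100 kb. Of these 10, a tag list held 7 and an MLL4 list held 4, against 26.9% and 4.61% of all primed regions. They were 1309 to 3427 bp wide, against a median of 1265 bp for all primed regions.

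Among the 216 regions held by all 4 tag lists, the one ranked first lay in EIF2AK2, the kinase PKR that senses double-stranded RNA (chr2:37103147-37105548). Its tag folds were 7.85 and 7.12 for 6xHis and 6.81 and 7.84 for FLAG. Its H3K4me1 fold was 10.6 and 7.1 in FOXD2 cells and 18.4 and 19.7 in control cells. Both FOXD2 values lay below both control values, which was not tested. HNRNPC, which binds nascent transcripts, followed (chr14:21245903-21249822), with tag folds of 6.00 and 8.24 for 6xHis and 6.85 and 8.41 for FLAG. The others of the first 10 were at CRISPLD1, SLC16A12, a monocarboxylate transporter, IARS1, the isoleucyl-tRNA synthetase, RNASE12, CXADR, a junction protein, YWHAE, a 14-3-3 protein, TMEM217 and WAC. At WAC (chr10:28547927-28552399) H3K4me1 covered 4422 and 4462 bp in FOXD2 cells and 710 and 629 bp in control cells.

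The primed region held most firmly by MLL4 was the ARHGAP32 region around the promoter printed above (chr11:129021872-129025387). Its MLL4 fold was 9.03 and 17.2 in FOXD2 cells and 11.7 and 12.1 in control cells, so the groups overlapped, and 1 FLAG list held it at fold 3.42. All 4 MLL4 lists also held regions at SEMA3E, a guidance semaphorin (chr7:83684059-83685656), RBBP8, a DNA end resection factor (chr18:22911744-22915749), and UBLCP1, a proteasome phosphatase (chr5:159239967-159241643). The fifth lay on chromosome 8 with no coding gene within 100 kb. RBBP8 had MLL4 folds of 11 and 10.5 in FOXD2 cells and 4.20 and 6.81 in control cells. Both FOXD2 values lay above both control values, which was not tested. CDH17, the intestinal LI-cadherin, had the highest MLL4 fold of the 10, with 9.44 in FOXD2 replicate 2, no peak in FOXD2 replicate 1, and 17.6 and 24.5 in control cells. The other regions held by 3 lists were those at INA, PLCH1, HSPB3 and TPRG1.

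The 5 widest members differed in H3K4me1 cover between the groups, in both directions. RCOR1, the corepressor CoREST (chr14:102688656-102700055, 11400 bp), had 8020 and 10318 bp covered in FOXD2 cells and 882 and 630 bp in control cells. SPRED2, an inhibitor of Ras signalling (chr2:65414230-65425030), had 10568 and 10739 bp in FOXD2 cells and 6946 and 5242 bp in control cells. The other 3 went the other way. THADA (chr2:43455526-43465073) had 2633 and 2430 bp covered in FOXD2 cells and 9232 and 9028 bp in control cells. DCBLD2 (chr3:98874481-98883273) had 1026 and 1758 bp in FOXD2 cells and 8793 and 6866 bp in control cells. ARHGAP5 (chr14:32081345-32089336) had 3550 and 3343 bp in FOXD2 cells and 7649 and 5699 bp in control cells. A merged region spans the union of its peaks, so the widest members include those where the peaks of 1 group extend far past those of the other. None of the 5 was held by an MLL4 list, and each was held by at least 1 tag list. At least 1 MLL4 list held 4.61% and at least 1 tag list 26.9% of all primed regions, and the tag share rose with width.

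Each primed region was given to the closest coding gene up to 100 kb away. This placed 9744 of them at 5312 of 19970 genes (26.6%), and 1440 had no gene that near. The share grew with gene length, and was 9.46% of genes under 10 kb and 64.2% of genes of 300 kb or more. H3K4me3 peaks of both lists lay at 77.2% of the genes with a primed region, against 68.3% of all protein-coding genes. Genes with a primed region were longer, at a median of 69.9 kb against 17.2 kb for genes without. Among genes of 50 to 100 kb the H3K4me3 share was 83.1% with and 77.8% without a primed region. Among genes of 100 to 300 kb it was 86.4% and 72.2%. Of the genes with a primed region, 3727 had no constant active region and 1585 had both.

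MED13L, a subunit of the Mediator kinase module, and ZBTB20, a zinc finger repressor, had the most, with 22 each. MED13L held 36 constant H3K4me1 regions, of which 3 were active. H3K4me1 peaks covered 31.5 and 38.5 kb of its primed regions in FOXD2 cells and 27.3 and 18.9 kb in control cells. Tag lists held 12 of its 22 primed regions and MLL4 lists held 0. ZBTB20 had 20.2 and 18.7 kb in FOXD2 cells and 25.1 and 25.9 kb in control cells, and tag lists held 8 of its 22 regions.

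Next came PPP3CA and LRBA with 14 each, PSD3 and PARD3 with 13, GNAQ, CDKAL1 and CCSER1 with 12, and MBNL1 with 11. LRBA takes part in vesicle traffic, PARD3 is a polarity scaffold, GNAQ a G protein subunit, CDKAL1 a tRNA-modifying enzyme and MBNL1 a splicing regulator. PPP3CA had 12.0 and 13.6 kb of H3K4me1 in its primed regions in FOXD2 cells and 21.9 and 21.0 kb in control cells. LRBA had 17.0 and 21.2 kb in FOXD2 cells and 11.3 and 10.6 kb in control cells. GNAQ had 15.1 and 15.4 kb in FOXD2 cells and 9.25 and 9.70 kb in control cells. Over the 10 genes, both FOXD2 lists were above both control lists in 5, below in 3 and overlapping in 2. The share over all genes with primed regions is not given here. Of all primed regions taken singly, both FOXD2 lists were above both control lists in 37.0% and below in 21.5%. Of the 145 primed regions of these 10 genes, tag lists held 48 (33.1%), against 26.9% of all primed regions. MLL4 lists held 2, against 4.61% of all primed regions.

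**Figure D5:**
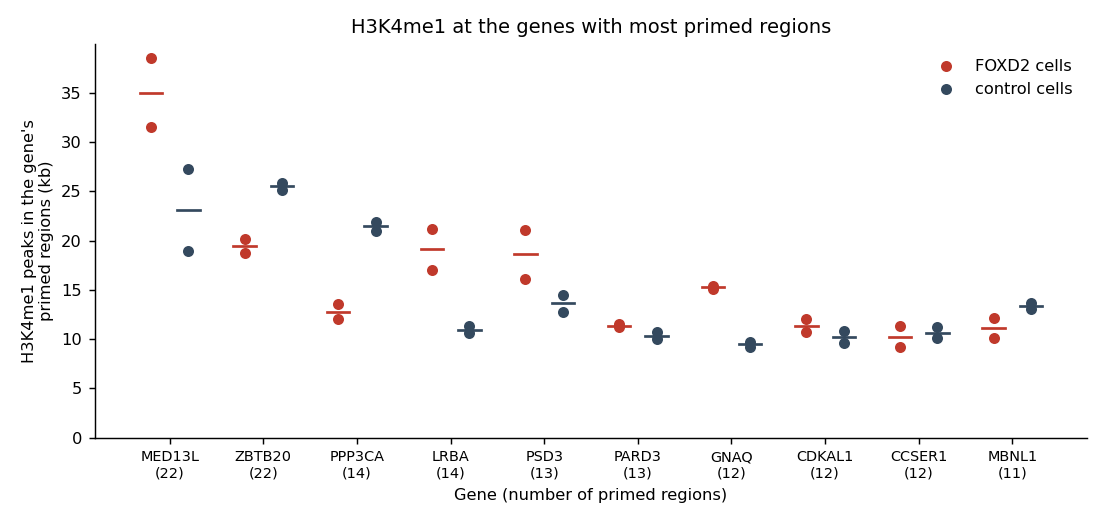
Length of H3K4me1 peaks inside the primed regions of each gene in kb (y axis) for the 10 genes with most primed regions (x axis), with 1 point per library and a bar at the mean of 2 libraries of FOXD2 or control cells. FOXD2 libraries lie above control libraries at MED13L, LRBA and GNAQ and below them at ZBTB20 and PPP3CA.

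Relative to gene length, the densest of the genes with at least 5 primed regions were ZCCHC13 on chromosome X, KLHL31, TRA2B, a splicing factor, ZNF217, a zinc finger transcription factor, and PRP4K, a splicing kinase. ZCCHC13 spans 0.855 kb, and its 5 regions lay outside it. TRA2B had 5 primed regions among 11 constant ones and none that was active. The tag lists had 6 and 12 peaks of 6xHis and 8 and 11 of FLAG in TRA2B, but 0 of its primed regions were held by a tag list.

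Gene lists of pathways and cell types are described by their counts, beside the 26.6% of all protein-coding genes with a primed region. In the TGF-beta and BMP pathway it was 14 of 20 genes. LTBP1, which stores latent TGF-beta, the ligand TGFB2 and the signal transducer SMAD2 had 4 regions each, and SMAD3 had 3. Of the mesenchymal genes, 13 of 18 had one, with 6 at the collagen gene COL5A2 and 2 at CDH2, the N-cadherin. Of the enhancer coactivators and corepressors, 11 of 20 did, with 7 at ARID1B, a subunit of the BAF remodeler, and 5 each at NCOA2 and NCOA3. Of the pioneer and enhancer transcription factors, 11 of 20 did, with 5 at TEAD1 and 4 each at GRHL2 and RUNX1. Median gene length in these lists, in that order, was 67.7, 31.3, 124 and 11.9 kb. A primed region was present at 19.9% of all genes of 10 to 50 kb, 39.5% of 50 to 100 kb and 59.5% of 100 to 300 kb. The part of length in the list counts was not tested.

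Of the writers and erasers of H3K4 methylation, 3 of 18 genes had a primed region. KDM6A, an H3K27 demethylase found in the MLL3 and MLL4 complexes, had 8 primed regions among 11 constant ones. KDM5A and KMT2C had 1 each. The FOXD2 gene had 0 primed regions among 3 constant ones, and 10 of 24 forkhead genes had at least 1, with 4 at FOXO1 and 3 at FOXP1.

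Of the intestinal transcription factors, 6 of 15 genes had a primed region. CDX2, which specifies the intestine, had 1 among 5 constant regions. Of the intestinal differentiation genes 4 of 26 did, namely CA2, LCT, PYY and SLC26A3, with 1 each. Of the Wnt targets 9 of 20 did, with 2 each at the stem cell receptor LGR5, its relative LGR6 and MYC. Epithelial junction and keratin genes had 9 of 20, with 7 at TJP1, the tight junction protein ZO-1. YAP and AP-1 genes had 6 of 18, with 6 at YAP1 and 5 at WWTR1, and Notch genes 7 of 16, with 4 at RBPJ.

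Nuclear receptors had 8 of 20 genes with a primed region, and THRB, a thyroid hormone receptor, had 10 regions, with 6 each at ESR1 and PPARG. The p53 targets had 7 of 20, with 3 at PMAIP1, and interferon and inflammatory genes 7 of 21, with 2 each at IRF1 and TNFAIP3. HOX genes had 2 of 22 and ribosomal protein genes 2 of 20. Synaptic adhesion and axon guidance genes had 9 of 22, with 6 at SEMA3C, and their median length was 943 kb. Lists differ in gene length, which moves with these counts, and its part was not tested.

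In the marker lists of other tissues, 7.14% to 33.3% of genes had a primed region, against 26.6% of all protein-coding genes. Neural markers had 5 of 16, with 9 regions at MAP2, a dendrite protein, and 7 at SYT1, a synaptic vesicle calcium sensor. MAP2 and SYT1 span 310 and 588 kb, and H3K4me3 of both lists lay at each. Of all genes of 300 kb or more, 64.2% had a primed region. Blood cell markers had 6 of 18, fibroblast and endothelial markers 5 of 16, with 4 at FLT1, liver markers 2 of 15 and skeletal and heart muscle markers 1 of 14. As a check of the line, H3K4me3 of both lists lay at 7 of 10 colon epithelial markers, with none at KRT20, CDX1 and VIL1, and at 7 of 26 intestinal differentiation genes, against 68.3% of all protein-coding genes. The share at the colon markers is thus near that of all genes and does not set the line apart. It lay at 7 of 18 blood, 6 of 16 fibroblast and endothelial, 9 of 16 neural, 2 of 14 muscle and 3 of 15 liver markers.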

How the data were processed

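Per the labels' protocols, native chromatin cut with MNase was used for the histone marks, and sonicated chromatin fixed with formaldehyde for MLL4 and for the tags. Tools listed in the submitters' processing notes were Bowtie2 2.3.4.1, cutadapt 3.4, MACS2 2.2.7.1, bedtools and Picard, with hg38 as the build. Each of 18 libraries had its own deposited list of peaks, and the 7 inputs are not used here. In the deposited lists, fold enrichment is a ratio, and p-values and q-values are given as −log10. Every deposited peak had a q of at most 0.01. These are the authors' own values per peak and were used to order peaks within a list only. Folds of named regions are also printed side by side for lists of both groups. This is description only, with no test and no correction for depth, input or list length. Read depth is unknown, so no limit of detection can be given.

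Peaks on chromosomes 1 to 22 and X were merged with a gap of 0 bp. A region counts as held by a list that has a peak on at least 1 of its bases. Members and gene lists were chosen with earlier results of these data known. Groups came from the sample titles. Shares of regions were compared over libraries by exact two-sided permutation tests (7 tests, Benjamini-Hochberg adjusted), which cannot go below 0.333 for 2 against 2 libraries or 0.13 for 4 within-library differences. Genes came from RefSeq (GRCh38.p14), which gives no strand in the gene table used, so both gene ends stand for the start. The 437 genes of the 23 lists all matched. Exons and introns are not used here, and no genome sequence was read. Named regions were the 10 strongest in H3K4me1, the 10 of all 4 tag lists and the 10 of most MLL4 lists by rank sum, and the 5 widest. Named genes were the 10 with most primed regions, the 5 densest, up to 4 per list and the promoters of most lists. Some members of 2 gene lists are not reported here by name. The steps were tested on simulated lists. Other settings were stricter peaks, larger overlap, a merging gap of 500 bp, equal list lengths, each library left out, width and distal limits, a replicate block, and other classes, tags and gene distances. Python 3.11.15, numpy 2.4.6, pandas 2.3.3, scipy 1.17.1 and matplotlib 3.10.9 were used.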

Additional observations from a re-analysis of the deposited data

How the results depend on the processing

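The number of primed regions ran from 10152 to 14821 over the other settings and from 11338 to 13667 with 1 library left out. The MLL4 difference of FOXD2 minus control turned to 0.291 points with all lists reduced to equal length and, chosen after seeing the data, to 0.165 with the MLL4 lists alone reduced, but was -1.03 with all lists but MLL4 reduced. It kept its sign under 9 settings and with each library left out (-1.64 to -0.304 points). The MLL4 difference of primed minus constant active regions kept its sign in all 14 settings and with each library left out (-16.8 to -11.4 points). The tag difference of primed minus constant active regions turned to 4.72 points for regions of 300 to 2000 bp. In settings chosen after seeing the data it turned to 4.48, 5.77, 5.99 and 5.67 points in the 4 width bins from 500 to 3000 bp, and to 0.493 points as a percent of base pairs covered (exact p = 0.375). With 1 library left out it was -5.78 to -1.78 points. The distal share fell to 70.0% when an overlap had to span 50% of the shorter interval, and was 83.7% to 84.6% with 1 library left out. Counting a primed region only inside a gene left 3372 genes, and 1 library left out gave 5384 to 6028. With the replicate number as a block, the MLL4 difference of FOXD2 minus control was -0.970 points (exact p = 0.5, the smallest that 2 pairs can give). The correlation of the deviations of same-numbered MLL4 libraries was 0.053. With 2 libraries per group this cannot decide whether the replicate number marks a batch. The titles give each MLL4 replicate number its own input in both groups. Peak lists without depth limit all of these to called peaks.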

Other observations

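Primed regions held 12 annotated microRNA hairpins. They are MIR4654, MIR8066, MIR4276, MIR5197, MIR587, MIR3692, MIR550A1 and MIR550B1, which lie on opposite strands of the same place, MIR591, MIR4676, MIR3973 and MIR676. The regions of MIR8066 and MIR4276, both on chromosome 4, were held by 2 tag lists each and that of MIR4676 by 1. None of the 12 lay in a region held by an MLL4 list. Of all primed regions, at least 1 MLL4 list held 4.61% and at least 1 tag list 26.9%. MIR8066 lies near the end of the run of primed regions in PPP3CA.

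Among regions just outside the rule, MLL4 and tag peaks were spread unevenly. The 1719 constant regions with H3K4me3 but no H3K27ac were held by an MLL4 list in 19.8% and by a tag list in 39.4%. Those with H3K27ac in FOXD2 replicate 1 alone were held by a tag list in 38.0%, and those in FOXD2 replicate 2 alone in 21.5%. Those with H3K27ac in control replicate 1 alone were held by a tag list in 21.2%, and those in control replicate 2 alone in 32.8%. The 2 replicates differed from each other in both groups, and no test was made. Median widths also differed, at 1924 and 1517 bp for FOXD2 replicates 1 and 2 and 1378 and 1563 bp for control replicates 1 and 2. The tag shares ran in the same order as these widths, and the part of width was not tested.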
